A study of Homo sapiens with 12 samples.

Results

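The CC chemokines described here are CCL2, CCL5, CCL20, CCL22 and CCL28, 5 genes taken by name from the 26485 genes of the series. They were measured by polyA RNA-seq in HT-29, an established human colon adenocarcinoma line. Cells were collected after 8 h in one of 4 conditions, with 3 libraries each. The TSZ+Nec-1s cells received TNF-α at 10 ng/ml, SM-164 at 50 nM, zVAD at 20 μM and Nec-1s at 10 μM. TSZ cells received the same TNF-α, SM-164 and zVAD without Nec-1s. TNF-α cells received TNF-α alone at 10 ng/ml, and DMSO cells the solvent. SM-164 mimics Smac and so depletes cIAP proteins, zVAD is a pan-caspase inhibitor, and Nec-1s is an inhibitor of the RIPK1 kinase. The TSZ mixture is used to drive TNF-dependent necroptosis, which Nec-1s blocks. No group received SM-164, zVAD or Nec-1s alone, and a single cell line was used.

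CC chemokines are small secreted proteins with 2 adjacent cysteines near the start of the mature chain, which draw leukocytes along a gradient through receptors of the CCR family. In the gut, CCL20 is made by epithelium and attracts CCR6-bearing dendritic cells and lymphocytes, and CCL28 is a mucosal epithelial product that attracts CCR10-bearing antibody-secreting cells. CCL22 is best known from macrophages and dendritic cells and attracts CCR4-bearing T cells. CCL2 attracts monocytes through CCR2, and CCL5 attracts T cells and monocytes. Transcription of inducible chemokines in TNF-treated cells is classically driven by NF-κB, and many of their mRNAs are short-lived.

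The deposited tables give the mean of scaled counts per group, and the whole reads behind each mean were recovered for 3 libraries per group. The libraries are lettered a, b and c, and a letter links no libraries between groups. Estimated depth was 9968067 to 12723017 reads in TSZ+Nec-1s, 10721728 to 11299354 in TSZ, 9979578 to 10611214 in TNF-α and 8952313 to 10584361 in DMSO libraries. The libraries within a group differed in how their levels followed the GC content of genes, with rank correlations over 10736 genes of up to 0.77 and down to -0.79, both in DMSO libraries (a and b). TSZ+Nec-1s libraries had the weakest such trends (-0.15 to 0.23). Of 10 colon epithelium markers, 9, 10, 10 and 9 had reads in TSZ+Nec-1s, TSZ, TNF-α and DMSO cells. Of the 6 tested, 4 were called higher in TSZ than in DMSO cells, where 43.2% of all tested genes were called. These were KRT20 (log2 fold change 2.60), CEACAM5 (1.87), CDH1 (0.55) and EPCAM (0.44). VIL1 (-0.15) and CDX2 (-1.25) were below 0 and not called. With scaling to total reads, 2 were higher and 1 lower. In TSZ+Nec-1s over TSZ, 4 were called lower (3 with that scaling), where 35.4% of all tested genes were called. The leukocyte markers PTPRC, CD3E, CD3D, MS4A1 and FCGR3A were at 0 in all 4 groups. The summed level of the 10 leukocyte markers was 408, 683, 357 and 245 normalized reads in TSZ+Nec-1s, TSZ, TNF-α and DMSO cells, most of it from CD68 and ITGAM. Its members went apart, with CD14 at 12.6 in TSZ against 80.8 in DMSO cells, CD68 at 550.5 against 154 and ITGAM at 117 against 9.33. The summed level of 10 fibroblast and endothelium markers was 52.0, 349, 53.2 and 132 normalized reads in TSZ+Nec-1s, TSZ, TNF-α and DMSO cells, with CDH5 and KDR at 0 in every library. Most of it was COL1A1 and COL1A2, both called lower in TSZ+Nec-1s than in TSZ cells (-2.81 and -4.34), the direction of CCL20 and CCL22. Of the 8 tested from this list, 5 were called lower there, beside the 35.4% of all tested genes called. In TNF-α over DMSO neither was called (COL1A1, log2 fold change -0.96, adjusted p = 0.462, and COL1A2, -2.42, adjusted p = 0.369). COL3A1, DCN and VWF were also called lower in TSZ+Nec-1s cells, but passed the filter on low values only through their 19, 17 and 15 reads in TSZ cells. PECAM1 went the other way, called lower in TSZ than in DMSO cells (-1.09) and at 0.42, not called, in TSZ+Nec-1s over TSZ. LUM (-1.35 and -0.34) and PDGFRB (0.71 and -2.20) were called in neither of these comparisons. The part of these markers in the chemokine results was not tested. Whether the libraries represent separate cultures is not given in the sources, and p-values therefore reflect only how these libraries spread, which may be technical. RNA came from whole cultures, in which fewer cells of a type and less RNA per cell cannot be told apart.

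CCL20 and CCL22 had almost no reads in DMSO cells, were present at low levels after TNF-α alone, were highest after TSZ and lay between TNF-α and TSZ when Nec-1s was added. CCL28 was the only 1 of the 5 with more than 30 reads in every DMSO and TNF-α library. CCL5 stayed at or under 10 reads in every library. CCL2 had 1 read in TSZ library c, 1 in TNF-α library a and none elsewhere, so no fold is given for it. With a mean of at least 1 normalized read required, 4 of the 5 genes were tested, and CCL2 was not. These differences are visible in the plot of levels by library. How many of all genes separate groups without overlap was not counted, so such separations are given here and below as descriptions only.

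**Figure D1:**
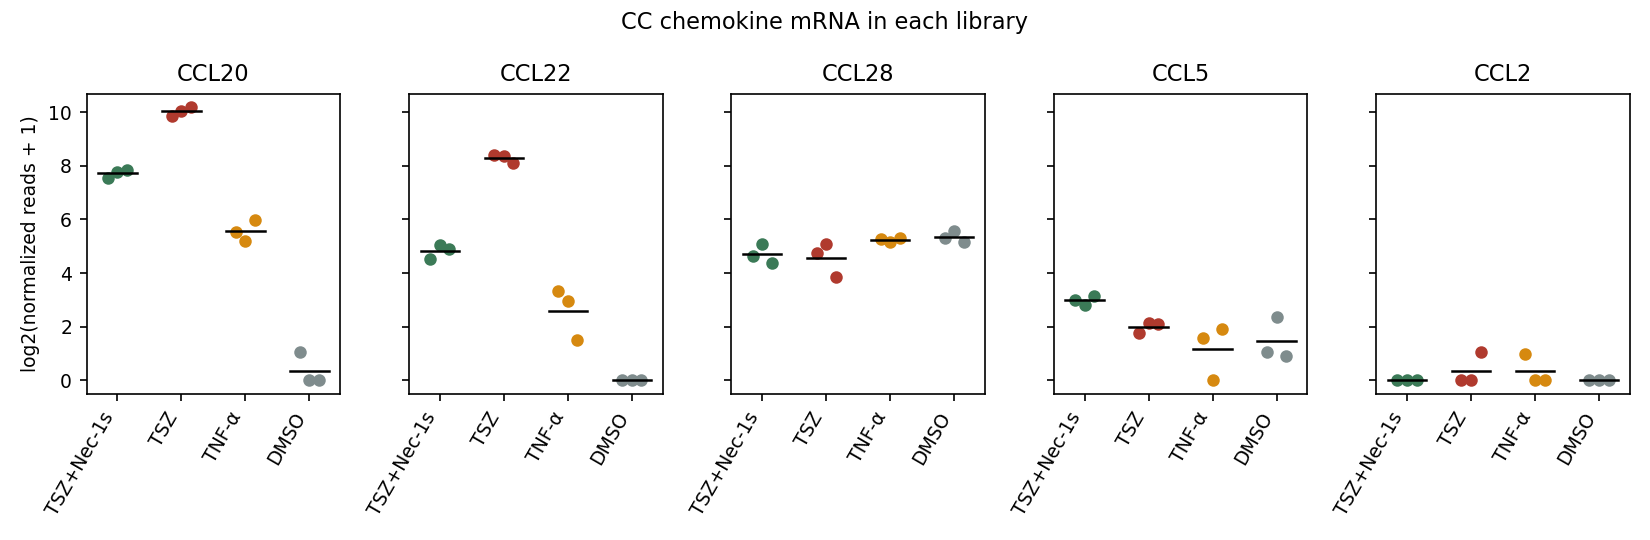
Level of each CC chemokine in each library, as log2(normalized reads + 1), with 3 points per group and a line at the group mean of the log values. CCL20 and CCL22 separate all 4 groups without overlap, CCL28 lies within a narrow band, and CCL5 and CCL2 lie near the bottom of the scale.

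Promoter sequence is shown for CCL20 and CCL22 because both rose with TNF-α and TSZ. RefSeq promoter entries (GRCh38.p14) were matched for CCL20, CCL22 and CCL28, the last with 2 starts. No entry was matched for CCL2 or CCL5, so their promoters were not searched. Each entry runs from 250 bases before to 50 after a start site. A match to the NF-κB (κB) consensus, searched on both strands, was present in the CCL20 promoter at -79 to -70 and in the CCL22 promoter at -185 to -176 from the start, and in neither CCL28 promoter. The consensus was found in 5.91% of 35116 promoters of the same length. The letters TATAAA on the gene's strand were found in the CCL20 promoter at -29 to -24 and in 7.33% of all promoters, and the AP-1 letters TGANTCA in none of the CCL20, CCL22 and CCL28 promoters and in 7.71% of all. In the 250 bases before the start of CCL20 (chr2:227813592-227813841, plus strand) and CCL22 (chr16:57358533-57358782, plus strand), capitals mark the κB match. A match is a match of letters only, and binding was not measured.
CCL20: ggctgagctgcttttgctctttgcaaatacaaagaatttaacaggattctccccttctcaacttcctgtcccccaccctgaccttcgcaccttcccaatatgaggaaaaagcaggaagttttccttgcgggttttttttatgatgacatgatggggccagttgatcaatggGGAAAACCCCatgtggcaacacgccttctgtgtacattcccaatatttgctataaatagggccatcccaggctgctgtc
CCL22: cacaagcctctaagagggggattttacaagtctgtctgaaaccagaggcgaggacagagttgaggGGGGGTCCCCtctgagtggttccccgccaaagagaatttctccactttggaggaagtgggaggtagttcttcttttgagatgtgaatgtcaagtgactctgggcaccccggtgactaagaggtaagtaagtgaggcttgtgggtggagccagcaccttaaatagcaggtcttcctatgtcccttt

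In the GENCODE annotation of hg38, CCL20 lies on chromosome 2 from 227805739 to 227817564 on the plus strand, with its RefSeq start inside that span, and CCL22 on chromosome 16 from 57358783 to 57366189 on the plus strand. CCL28 lies on chromosome 5 from 43376645 to 43412391 on the minus strand. CCL2 (34255274 to 34257208, plus strand) and CCL5 (35871491 to 35880793, minus strand) are both on chromosome 17. Only CCL5 is overlapped by another annotated gene, a long noncoding RNA on the opposite strand that shares no exon bases with it, and reads were counted without regard to strand. The 3′UTR of CCL20 holds 3 copies of the AU-rich letters ATTTA and 1 of TATTTAT, and that of CCL28 holds 7 and 2. CCL2 has 1 ATTTA, and neither set of letters is in the 3′UTRs of CCL5 and CCL22. Among 19229 coding genes, 67.8% have at least 1 ATTTA and 31.7% at least 1 TATTTAT.

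CCL20 had 933, 1043 and 1163 normalized reads in TSZ cells (784, 924 and 1048 reads), against 1.07, 0 and 0 in DMSO cells, where a single read was counted. All TSZ libraries were far above all DMSO libraries. In TSZ+Nec-1s cells CCL20 had 184, 218 and 228 normalized reads (183, 251 and 288 reads), and in TNF-α cells 45.0, 35.6 and 62.6 (45, 37 and 67 reads). The group means were 209.9 ± 22.9 in TSZ+Nec-1s, 1046 ± 115 in TSZ, 47.7 ± 13.7 in TNF-α and 0.356 ± 0.617 in DMSO cells (SD, n = 3 each). From high to low the order was TSZ, TSZ+Nec-1s, TNF-α and DMSO, and no neighbours in that order overlapped.

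CCL22 followed the same order at lower levels. It had 340, 331 and 273 normalized reads in TSZ cells (286, 293 and 246 reads) and none in DMSO cells. In TSZ+Nec-1s cells it had 22.1, 32.1 and 28.5 (22, 37 and 36 reads), and in TNF-α cells 9.01, 6.74 and 1.87 (9, 7 and 2 reads). The lowest TNF-α value was in library c, in which CCL20 was highest. Group means were 27.6 ± 5.05 in TSZ+Nec-1s, 315 ± 36.5 in TSZ, 5.87 ± 3.65 in TNF-α and 0 in DMSO cells (SD, n = 3 each). No neighbours in the order overlapped.

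TSZ was compared with DMSO to ask which chemokine genes change during necroptosis. CCL20 and CCL22 rose, and neither CCL28 nor CCL5 passed the test, so that 2 of the 4 tested genes were called, both higher. Across all 14017 tested genes, 43.2% were called in this comparison, so the count is no result about the chemokines, and their values are given instead. For CCL20, 2756 reads in TSZ against 1 read in DMSO gave a ratio of normalized means of 2936, with an exact (Clopper-Pearson) 95% interval of 564 to 124200 that covers counting error only. CCL22 was at least 315-fold higher in TSZ than in DMSO cells, with DMSO set to a floor of 3 reads in the 3 libraries together (1 on average). The floor was used only where a group had no reads, so the CCL20 ratio, against 1 read, is on another scale. Folds given as at least a value leave out counting error in the higher group and are not interval limits. The limma fit gave a log2 fold change of 10.49 for CCL20 (SE 0.76, adjusted p = 9.71e-08) and 9.29 for CCL22 (SE 0.73, adjusted p = 2.39e-07). Fitted values against a group at or near 0 depend on the offset of 0.5 reads and are not bounds.

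TNF-α alone was compared with DMSO for the effect of the cytokine without necroptosis. CCL20 rose, with 149 reads in TNF-α against 1 in DMSO cells, a ratio of normalized means of 134 (counting interval 25.4 to 5713) and a fitted log2 fold change of 6.02 (SE 0.77, adjusted p = 0.000378). CCL22 was at least 5.87-fold higher in TNF-α cells by the floor, which leaves out counting error in its 18 reads. The fitted log2 fold change of CCL22 was 3.42 (SE 0.83, adjusted p = 0.04). That made 2 of 4 tested genes called higher, where 3.08% of all tested genes were called in either direction. CCL20 stood at rank 4 and CCL22 at rank 23 among the 327 genes called higher, ordered by log2 fold change. These ranks rest on fitted values that depend on the offset, and genes not resolved into whole reads were not ranked. Over all settings the fitted value was 3.27 to 6.60 for CCL20 and 1.06 to 4.04 for CCL22. The CCL22 call rests on 18 reads. It was lost without DMSO library a, b or c (adjusted p = 0.0947, 0.1 and 0.154), without TNF-α library a or b (0.118 and 0.12) and when only the TNF-α and DMSO libraries were fitted (0.159), and it held without TNF-α library c (log2 fold change 4.04, adjusted p = 0.00745).

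TSZ exceeded TNF-α alone for both genes. CCL20 was 21.9-fold higher in TSZ than in TNF-α cells (log2 fold change 4.47, SE 0.20, adjusted p = 1.12e-09), and CCL22 was 53.6-fold higher (5.87, SE 0.42, adjusted p = 1.26e-07). Without TNF-α library c, which had 2 CCL22 reads, the CCL22 value was 5.24 (adjusted p = 4.47e-07), and with each other library left out it was up to 6.26. The share of all tested genes called here was 37.4%. Among 2717 genes called higher, CCL22 stood at rank 7 and CCL20 at rank 44 by log2 fold change. Put the other way, the TNF-α mean was 4.56% of the TSZ mean for CCL20 and 1.87% for CCL22.

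Nec-1s was added to TSZ to ask what depends on RIPK1 kinase activity. CCL20 fell to 20.1% of its TSZ mean and CCL22 to 8.76% in TSZ+Nec-1s cells. The log2 fold changes, TSZ+Nec-1s over TSZ, were -2.31 for CCL20 (SE 0.14, adjusted p = 3.28e-08) and -3.49 for CCL22 (SE 0.23, adjusted p = 6.94e-08). Both of the genes that had risen were called lower, while CCL28 (0.14, SE 0.33, adjusted p = 0.772) and CCL5 (1.05, SE 0.58, adjusted p = 0.179) were not called. Of all tested genes 35.4% were called. By log2 fold change, CCL22 stood at rank 88 and CCL20 at rank 326 among 2674 genes called lower.

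The level that remained in TSZ+Nec-1s cells was above that in TNF-α and in DMSO cells. Against DMSO, CCL20 gave 722 reads against 1, a ratio of normalized means of 589 (counting interval 113.5 to 25100) and a fitted log2 fold change of 8.18 (SE 0.76, adjusted p = 7.62e-06). CCL22 was at least 27.6-fold higher in TSZ+Nec-1s than in DMSO cells (fitted 5.80, SE 0.75, adjusted p = 0.000167). The share of all tested genes called in this comparison was 10.4%. Against TNF-α alone, CCL20 was 4.396-fold higher in TSZ+Nec-1s cells (log2 fold change 2.16, SE 0.21, adjusted p = 0.00034) and CCL22 was 4.70-fold higher (2.38, SE 0.45, adjusted p = 0.0239). Thus 2 of 4 tested chemokines were called where 0.906% of all tested genes, 127 of 14017, were. That background depended on the libraries in the fit, since 3021 of 13856 genes were called when only the TSZ+Nec-1s and TNF-α libraries were fitted. The CCL22 call against TNF-α was lost without TNF-α library a, b or c (adjusted p = 0.0532, 0.0952 and 0.111) and without TSZ+Nec-1s library b or c (0.0876 and 0.0856), always with CCL22 higher, and the value was 1.76 without TNF-α library c. The comparisons share libraries, and the fitted values of each are set side by side in the plot of log2 fold changes.

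**Figure D2:**
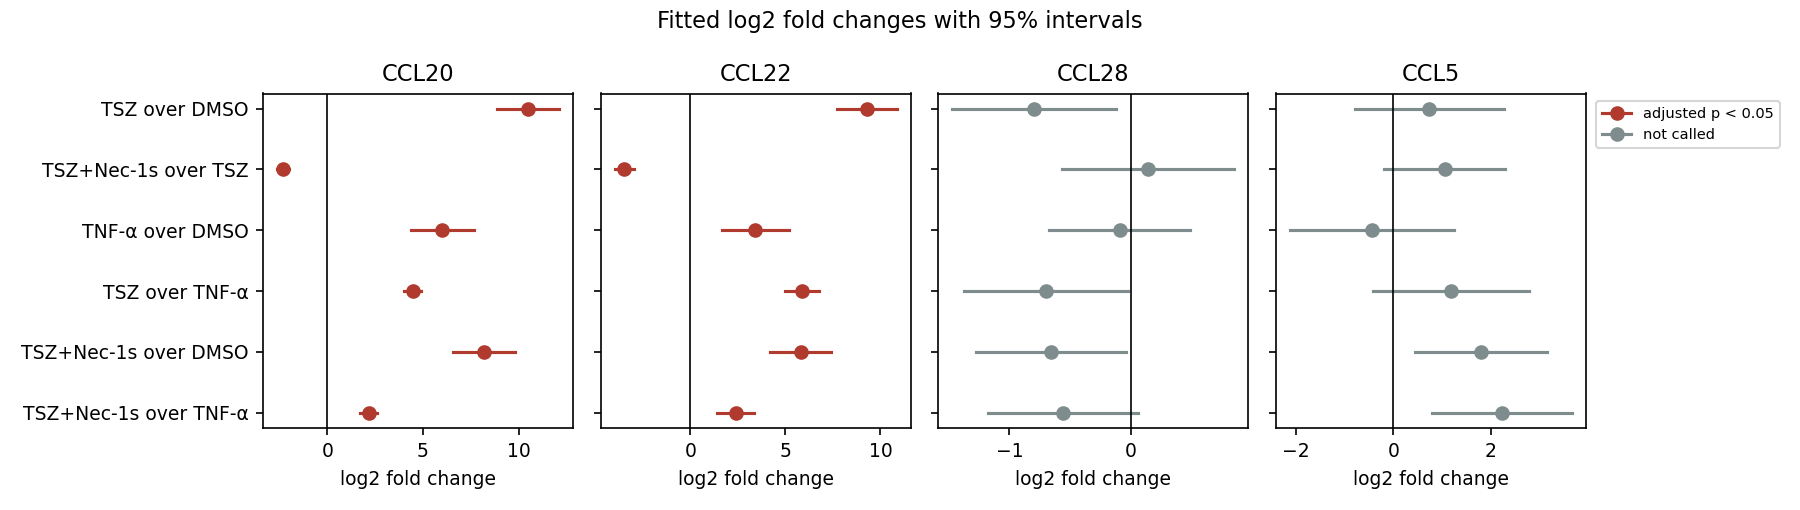
Fitted log2 fold change of the 4 tested CC chemokines in 6 comparisons, with 95% intervals from limma, each panel with its own horizontal axis. Red marks an adjusted p under 0.05. CCL20 and CCL22 were called in all 6 comparisons and are left of 0 only for TSZ+Nec-1s over TSZ, and no interval of CCL28 or CCL5 is red.

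The proportion of CCL22 to CCL20 was compared within libraries. For every 100 CCL20 reads there were 12.02, 14.7 and 12.5 CCL22 reads in TSZ+Nec-1s libraries, 36.5, 31.7 and 23.5 in TSZ libraries, and 20.0, 18.9 and 2.99 in TNF-α libraries. All TSZ libraries were above all TSZ+Nec-1s and all TNF-α libraries, whereas TSZ+Nec-1s and TNF-α libraries overlapped. The mean was 13.1 ± 1.45 in TSZ+Nec-1s and 30.6 ± 6.58 in TSZ libraries (SD, n = 3 each; two-sided exact permutation test on log2 ratios, p = 0.1, adjusted over 3 tests 0.15). TSZ against TNF-α libraries, with a mean of 13.97 ± 9.53 in the TNF-α libraries, gave the same exact p of 0.1 (adjusted 0.15), and TSZ+Nec-1s against TNF-α libraries gave an exact permutation p of 1. With 3 libraries against 3, 0.1 is the smallest p that can be reached, so these tests could not pass the threshold. The ratio was chosen for testing after the levels were seen. The longest transcript of CCL22 has 52.8% GC and that of CCL20 35.5%. In TSZ and in TNF-α, library c had the lowest ratio and a negative GC trend (-0.74 and -0.60), and the others had positive trends. In TSZ+Nec-1s, library b had the highest ratio and the only positive trend (0.23). These trends are taken against each group's own mean. The part of GC content in the ratio was not tested.

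**Figure D3:**
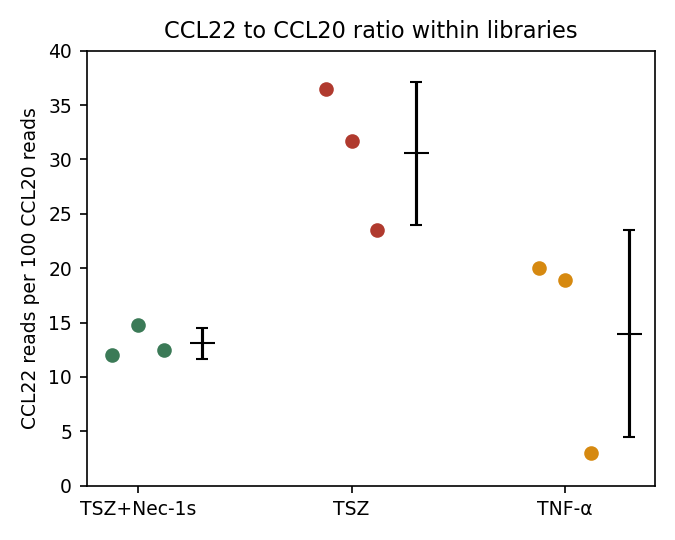
CCL22 reads per 100 CCL20 reads in each TSZ+Nec-1s, TSZ and TNF-α library (points), with the mean and SD beside them (n = 3 each). TSZ libraries lie between 23.5 and 36.5, above the other two groups, and TNF-α library c lies lowest at 2.99.

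CCL28 was read in all 12 libraries, at 13.3 to 46.2 normalized reads. It had 24.1, 33.0 and 19.8 normalized reads in TSZ+Nec-1s cells, 26.2, 32.7 and 13.3 in TSZ cells, 38.0, 34.6 and 38.3 in TNF-α cells and 38.5, 46.2 and 35.1 in DMSO cells. Every TSZ and TSZ+Nec-1s library was below every TNF-α and DMSO library, by small margins. The share of all genes that separate in this way was not counted, so this is a description. Means were 25.6 ± 6.74 in TSZ+Nec-1s, 24.1 ± 9.88 in TSZ, 37.0 ± 2.04 in TNF-α and 39.9 ± 5.71 in DMSO cells (SD, n = 3 each). In the order DMSO, TNF-α, TSZ+Nec-1s and TSZ, the neighbours DMSO and TNF-α overlapped, as did TSZ+Nec-1s and TSZ.

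None of the 6 CCL28 comparisons passed the test. TSZ over DMSO gave a log2 fold change of -0.80 (95% interval -1.47 to -0.13, adjusted p = 0.0534) and TSZ over TNF-α -0.70 (-1.38 to -0.03, adjusted p = 0.096). TSZ+Nec-1s over DMSO gave -0.66 (-1.27 to -0.04, adjusted p = 0.181) and TSZ+Nec-1s over TNF-α -0.56 (-1.18 to 0.06, adjusted p = 0.341). For TNF-α over DMSO the value was -0.10 (-0.67 to 0.48, adjusted p = 0.917), and for TSZ+Nec-1s over TSZ 0.14 (-0.56 to 0.85, adjusted p = 0.772). The TSZ over DMSO value lay at the threshold: it was called lower without TSZ library b (-1.07, adjusted p = 0.03) and after removal of the GC trends (-0.85, adjusted p = 0.0447). TSZ library c, with the lowest CCL28 level, also had the strongest GC trend of the TSZ libraries (-0.74). In that library levels fell, relative to the group's mean, as GC content rose. The longest transcript of CCL28 has 40.2% GC, and the part of GC content in its level was not tested. Without TSZ library c the TSZ over DMSO value was -0.42 (adjusted p = 0.259). Scaling to total reads gave a call of lower in TSZ both against DMSO (-1.21, adjusted p = 0.00492) and against TNF-α (-1.04, adjusted p = 0.0139), beside a median over all genes of -0.44 and -0.33.

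CCL5 was low throughout. It had 7.04, 6.08 and 7.91 normalized reads in TSZ+Nec-1s cells, 2.38, 3.39 and 3.33 in TSZ cells, 2.002, 0 and 2.80 in TNF-α cells and 1.07, 4.20 and 0.900 in DMSO cells. TSZ+Nec-1s libraries were above all others, and the other 3 groups overlapped. For this separation, too, the share over all genes was not counted. The sums were 24, 8, 5 and 6 reads in TSZ+Nec-1s, TSZ, TNF-α and DMSO cells. The ratio of normalized means was 3.41 for TSZ+Nec-1s over DMSO (counting interval 1.40 to 10.5), 4.38 over TNF-α (1.64 to 14.7) and 2.31 over TSZ (1.005 to 5.95). By the fit, TSZ+Nec-1s over DMSO was 1.80 (log2, SE 0.63, adjusted p = 0.0913) and TSZ+Nec-1s over TNF-α 2.23 (SE 0.67, adjusted p = 0.167), neither called. The first was called without DMSO library b, the DMSO library with most CCL5 reads (2.34, adjusted p = 0.039), and the second when only these groups were fitted (adjusted p = 0.0425). TSZ over DMSO was 0.74 (SE 0.71, adjusted p = 0.431), TSZ over TNF-α 1.18 (SE 0.74, adjusted p = 0.238) and TNF-α over DMSO -0.44 (SE 0.78, adjusted p = 0.859).

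Of the 23 other CC chemokine genes listed, 21 had no reads in any library. CCL15, a ligand of CCR1 and CCR3, had 4.38 ± 2.23 normalized reads in TSZ+Nec-1s, 7.99 ± 5.15 in TSZ, 6.82 ± 2.82 in TNF-α and 9.82 ± 2.31 in DMSO cells (SD, n = 3 each), and was called in no comparison. It overlaps an annotated readthrough gene with CCL14, so its reads are uncertain. CCL16 had 2 reads, both in DMSO library a. Per kilobase of canonical transcript, which permits comparison between genes, CCL20 made up 89.2% of the summed CC chemokine level in TSZ+Nec-1s, 90.5% in TSZ, 67.9% in TNF-α and 1.34% in DMSO cells. CCL22 made up 3.35%, 7.78%, 2.39% and 0% of it, in the same order of groups. In DMSO cells the level per kilobase was divided between CCL15 (52.2%) and CCL28 (39.98%). The summed level was 282, 1386, 84.4 and 32.0 normalized reads per kilobase in TSZ+Nec-1s, TSZ, TNF-α and DMSO cells.

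**Figure D4:**
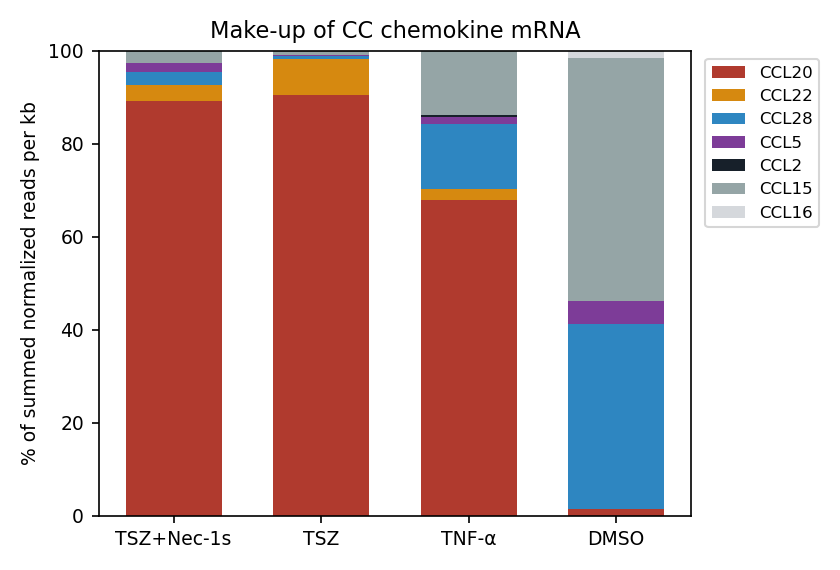
Share of each CC chemokine in the summed CC chemokine level per kilobase of canonical transcript, from the group means (stacked bars, 100% per group). CCL20 fills 89.2%, 90.5% and 67.9% of the TSZ+Nec-1s, TSZ and TNF-α bars, and CCL15 and CCL28 fill most of the DMSO bar.

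Receptor genes for these ligands were scarcely read. Of 14 listed CC receptor genes 9 had reads and 3 were tested. CCR6, the receptor for CCL20, had 1, 1, 1 and 5 reads in TSZ+Nec-1s, TSZ, TNF-α and DMSO cells. CCR4, the receptor for CCL22, had 1 read, in TSZ. For CCR10, which binds CCL28, 1 read was counted in TNF-α and 1 in DMSO cells. CCR1, a receptor for several CC chemokines, had 2 reads in TNF-α cells, and CCR9, the receptor for CCL25, had 1 in TSZ+Nec-1s cells.

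Of the 3 tested receptors, 2 could be compared. CCRL2, a chemerin-binding relative of the CC receptors, had 96.2 ± 5.46 normalized reads in TSZ+Nec-1s, 597 ± 52.9 in TSZ, 72.5 ± 15.9 in TNF-α and 53.6 ± 4.54 in DMSO cells (SD, n = 3 each). It rose in TSZ over DMSO (log2 fold change 3.46, adjusted p = 1.75e-09) and fell in TSZ+Nec-1s over TSZ (-2.62, adjusted p = 9.34e-09). CCR7, the receptor for CCL19 and CCL21, had 10 reads in TSZ, 1 in TNF-α and none in the other groups, so it passed the filter on low values only through TSZ, where it is high, and its calls are not used. It was not tested with scaling to total reads. ACKR4, a scavenging receptor for CCL19, CCL21 and CCL25, went the opposite way, with 14.015 ± 5.68 normalized reads in TSZ+Nec-1s, 1.56 ± 1.83 in TSZ, 9.67 ± 3.51 in TNF-α and 8.39 ± 2.77 in DMSO cells. It was lower in TSZ than in DMSO cells (-2.46, adjusted p = 0.0158) and higher in TSZ+Nec-1s than in TSZ cells (3.17, adjusted p = 0.00341). Shares of 43.2% and 35.4% of all tested genes were called in these comparisons.

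By the smallest root mean square difference of centred log2(normalized reads + 1) over the 12 libraries, among 11558 genes, the profiles nearest to CCL20 (SD 3.59) were ICAM1 (difference 0.79), TNFAIP3 (0.83) and CSF1 (0.85). ICAM1, a leukocyte adhesion ligand, averaged 3465, 7953, 877 and 38.7 normalized reads in TSZ+Nec-1s, TSZ, TNF-α and DMSO cells. TNFAIP3, which encodes the ubiquitin-editing NF-κB inhibitor A20, averaged 1048, 5912, 536 and 20.8 in that order. Nearest to CCL22 (SD 3.07) were CSF1 (0.67), CXCL2 (0.71) and CSF2 (0.75). CSF1, the macrophage growth factor, averaged 164, 1357, 60.4 and 3.68, and CSF2, the granulocyte-macrophage growth factor, 32.8, 436, 15.1 and 1.55, again in that order. For CCL28 (SD 0.46) the nearest were TMEM143 (0.23), LOC100132215 (0.24) and PRR26 (0.24). Genes not resolved into whole reads in every library, CXCL8 among them, were not compared, so a nearer profile may lie among those. The likeness is over samples that share their libraries and carries no test.

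Genes that switch on chemokine transcription, or feed back on it, were mostly called in the same directions as CCL20 and CCL22, except in TSZ+Nec-1s over TNF-α, where most were not called. This list was written with earlier results of these data known, so its counts are a description. Of 16 listed, 15 were tested, and JUN was not because its TSZ mean of 24492 could not be resolved into whole reads. In TSZ over DMSO 15 of 15 rose (median log2 fold change 4.56, against -0.03 over all genes, of which 43.2% were called). In TSZ over TNF-α 15 of 15 rose (2.27, against 0.01 and 37.4% called), or 14 with either other scaling or with the GC trend removed. In TSZ+Nec-1s over TSZ 13 fell and none rose (-1.39, against 0.01 and 35.4% called). In TNF-α over DMSO 10 rose (1.24, against -0.01 and 3.08% called), and in TSZ+Nec-1s over DMSO 13 rose (2.93, against 0.00 and 10.4% called). In TSZ+Nec-1s over TNF-α 5 rose (0.53, against -0.03 and 0.906% called), or 9 with the GC trend removed. Both genes not called lower with Nec-1s were BIRC3 (0.10, adjusted p = 0.754), which encodes cIAP2, and NFKBIE (0.11, adjusted p = 0.53), which encodes IκBε. With scaling to total reads, 11 fell and 1, NFKBIE, rose.

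Among these genes the sizes differed. TNF mRNA had 75.4 ± 8.14 normalized reads in TSZ+Nec-1s, 473 ± 39.3 in TSZ, 47.6 ± 13.8 in TNF-α and 0.600 ± 1.04 in DMSO cells (SD, n = 3 each). ATF3, a stress-induced transcription factor, had 56.6 ± 12.2, 3093 ± 283, 39.4 ± 7.85 and 23.6 ± 3.16 in that order, and fell by 5.76 on the log2 scale in TSZ+Nec-1s over TSZ (adjusted p = 5.36e-11). The NF-κB subunit gene RELA fell by less in TSZ+Nec-1s over TSZ (-1.39, adjusted p = 1.35e-06).

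The listed CXC and CX3C chemokines did not move as 1 block. Of 10 listed, 9 were tested, since CXCL8 had a TSZ mean of 32893 that could not be resolved into whole reads, beside 4054 in TSZ+Nec-1s, 3107 in TNF-α and 53.4 in DMSO cells. In TSZ over DMSO 8 of 9 rose (median 4.94, with -0.03 over all genes and 43.2% of them called), and the exception was CXCL5 (0.94, adjusted p = 0.523). In TNF-α over DMSO 7 rose (3.21, with -0.01 and 3.08% over all genes), in TSZ+Nec-1s over DMSO 9 rose (4.51, with 0.00 and 10.4%), and in TSZ+Nec-1s over TNF-α 5 rose (1.30, with -0.03 and 0.906%). In TSZ over TNF-α 4 rose and 1 fell (0.61), a share of calls near the 37.4% of all genes. In TSZ+Nec-1s over TSZ 4 fell, namely CXCL1, CXCL2, CXCL3 and CX3CL1, and 3 rose, namely CXCL5, CXCL10 and CXCL11 (median of the 9 tested -0.14, with 0.01 and 35.4% over all genes). CXCL5 passed the filter on low values only through its 21 reads in TSZ+Nec-1s cells, where it is high, so its calls there are a description. These counts were the same with total-read and upper-quartile scaling. CXCL2, a neutrophil attractant, was close to CCL20 in its fall (-2.71, adjusted p = 2.57e-09), whereas CXCL10, a T cell attractant, was at 141.7 ± 9.01 normalized reads in TSZ+Nec-1s, 16.3 ± 8.26 in TSZ, 33.8 ± 6.01 in TNF-α and 0 in DMSO cells (3.20 for TSZ+Nec-1s over TSZ, adjusted p = 2.55e-06).

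**Figure D5:**
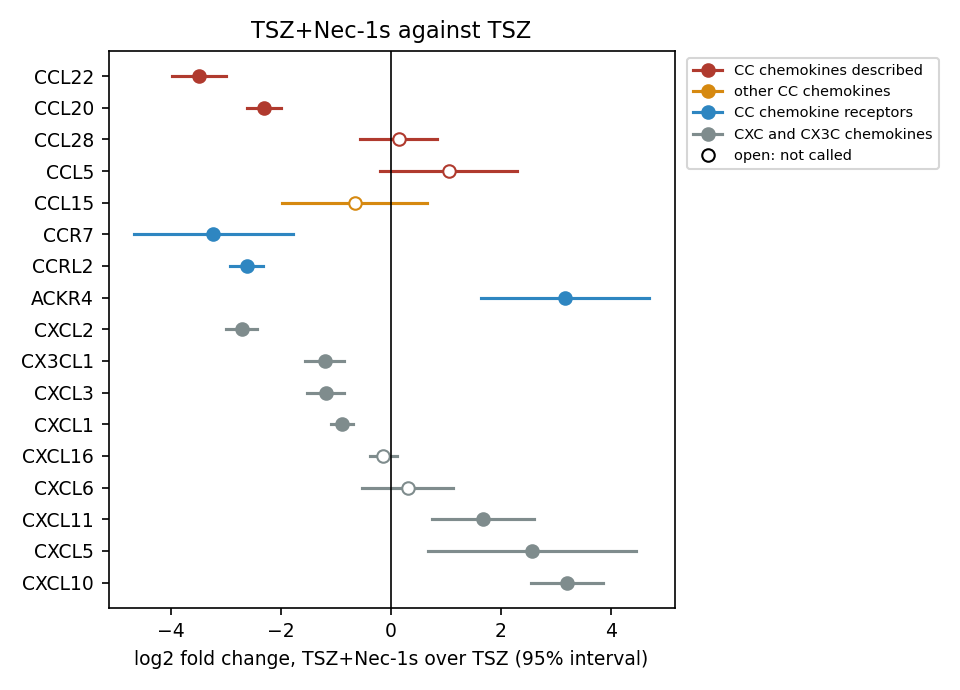
Fitted log2 fold change of TSZ+Nec-1s over TSZ with 95% intervals for tested CC chemokines, CC receptors and CXC or CX3C chemokines, with open points for an adjusted p of 0.05 or more. Among the called genes, CCL22 and CCL20 lie left of 0 with CCRL2, 4 CXC or CX3C genes and CCR7, and ACKR4, CXCL5, CXCL10 and CXCL11 lie right of 0. CCR7 passed the filter on low values through TSZ alone, and CXCL5 through TSZ+Nec-1s alone. Genes not called lie on both sides of 0.

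Genes of factors that bind AU-rich mRNAs or cut chemokine mRNAs were read in all groups. Of 7 listed, 6 were tested, and ZFP36 (tristetraprolin) was not, with a TSZ mean of 9428 against 885 in TSZ+Nec-1s, 868 in TNF-α and 748 in DMSO cells. In TSZ over DMSO ZFP36L1 (2.57, adjusted p = 1.67e-10), ZFP36L2 (1.83, adjusted p = 2.79e-08) and ZC3H12A (1.73, adjusted p = 7.58e-07), which promote decay, rose, and ELAVL1, whose product HuR stabilizes mRNAs, fell by 0.49 on the log2 scale (adjusted p = 0.000395), where 43.2% of all genes were called. In TSZ+Nec-1s over TSZ, with 35.4% of all genes called, those 3 fell and ELAVL1 rose (0.57, adjusted p = 0.000174). HNRNPD and KHSRP, whose products also bind AU-rich mRNAs, were not called in either comparison, but with total-read scaling both were called lower in TSZ over DMSO and higher in TSZ+Nec-1s over TSZ. In TNF-α over DMSO 2 of 6 rose (3.08% of all genes called), in TSZ+Nec-1s over DMSO 3 rose (10.4%), and in TSZ over TNF-α 3 rose and 1 fell (37.4%), or 2 and 2 with scaling to total reads. In TSZ+Nec-1s over TNF-α, limma called 0 of 6, with 2 at an unadjusted p under 0.05, where it called 0.906% of all genes.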

How the data were processed

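RNA of HT-29 cells in 4 groups of 3 samples was sequenced (12 samples). Per the methods, the authors used STAR 2.3.0e for mapping (hg38), HTSeq 0.5.4e for strand-independent counts and DESeq for scaling. The signal in the authors' deposited tables is the mean scaled count of a group. Their fold change, log2 and p-value columns were not used. Whole reads were recovered from each mean as 3 counts over 3 size factors and the recovery was tested on simulated data. From 15551 to 15746 genes per group were solved, and the lowest mean left unsolved was 8974. Log2 values (reads + 0.5) with precision weights were fitted with limma 3.58.1 in R 4.3.3, with 4 groups, the authors' size factors and 14017 genes with a mean of at least 1. P-values were two-sided and Benjamini-Hochberg adjusted over these genes, with calls at 0.05. Alternatives were filters, scalings, pseudocounts, GC removal, the groups fitted and libraries left out. Python 3.11.15 was used otherwise. Named genes were the 5 chemokines, other CC chemokines and receptors with reads, the 3 nearest profiles and a few members of listed groups. One item is not reported here. Members and lists were chosen with earlier results of these data known.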

Additional observations from a re-analysis of the deposited data

How the results depend on the processing

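CCL20 kept its direction and its call in all 6 comparisons under all 14 alternatives of each, and CCL22 did so in TSZ over DMSO, TSZ+Nec-1s over TSZ, TSZ over TNF-α and TSZ+Nec-1s over DMSO. The number of CC chemokines called in TNF-α over DMSO was 1 when only these groups were fitted and 1 to 2 with each library left out, and in TSZ+Nec-1s over TNF-α it was 1 to 2 with each library left out, CCL22 being lost each time. A fit with 2 libraries in a group assumes that they vary like the other groups. The CCL28 value for TSZ+Nec-1s over TSZ was -0.01 (-0.0050) with the GC trend removed and -0.24 to 0.41 with libraries left out. For TNF-α over DMSO, CCL28 was 0.0029 with the GC trend removed and -0.19 to 0.0123 with libraries left out, and CCL5 -0.98 to 0.42. None of these was called. CCL28 in TSZ over DMSO was also called with a filter of 10 reads (adjusted p = 0.0462), upper-quartile scaling (0.0291) and a pseudocount of 5 (0.0464), and in TSZ over TNF-α with the GC trend removed (0.0491). CCL5 in TSZ+Nec-1s over DMSO was also called with a pseudocount of 5 (0.0488) and the GC trend removed (0.0438). With a filter of 10 reads CCL5 was not tested.

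Counts of all genes called moved by over 1.5 times in 3 comparisons. TNF-α over DMSO had 432, with the GC trend removed 1222, with only these groups 191 and with libraries left out 255 to 522. TSZ+Nec-1s over DMSO had 1459, 2903, 920 and 787 to 3808 in the same order, and TSZ+Nec-1s over TNF-α 127, 412, 3021 and 50 to 928. The highest of these with a library left out were all without DMSO library b. Scaling to total reads changed the split of higher and lower genes to 1701 and 5904 in TSZ over DMSO (3118 and 2931 otherwise), 4957 and 1410 in TSZ+Nec-1s over TSZ (2284 and 2674), 1559 and 4991 in TSZ over TNF-α (2717 and 2519), 279 and 182 in TNF-α over DMSO (327 and 105) and 681 and 1094 in TSZ+Nec-1s over DMSO (804 and 655), with medians over all genes of -0.44, 0.34, -0.33, -0.08 and -0.08. Removing the GC trend gave 627 and 595 in TNF-α over DMSO. The cause was not tested. No paired analysis was possible because the tables hold means per group and the recovered libraries carry no replicate number.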
